A study of Mus musculus with 7 samples.

Results

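The genes described here encode the proteins of the mitochondrial ribosome. They were taken by symbol, Mrps for the small subunit and Mrpl for the large subunit followed by a number, and 71 of the 22180 genes measured matched, 28 small subunit and 43 large subunit symbols. A further 7 genes with such symbols (Mrps6, Mrpl30, Mrpl33, Mrpl41, Mrpl43, Mrpl44 and Mrpl53) lay only on probe sets that list another gene as well and were not analysed here. Where a gene had several probe sets, the brightest over all 7 arrays was used, so these genes were chosen by symbol, and their probe sets were selected on mean brightness. The difference between the groups did not enter the choice of probe set. The gene group itself was chosen with earlier results of these data known.

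RNA came from blastemas of C57Bl/6 mice collected 2 weeks after digit amputation (3 arrays) and from uninjured digits of the same strain (4 arrays). The blastema is the mass of cells that forms at the cut digit tip and rebuilds it. Each array is a separate biological replicate by its label. The labels give no age, no number of digits behind each sample and no array batch. The title of the study concerns Schwann cell precursors of the nerve and the factors they secrete, and the comparison asks how the regenerating tip differs from the intact digit.

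Mitochondrial ribosomes make the few proteins encoded by mitochondrial DNA, all of them subunits of the respiratory chain and the ATP synthase. Their RNA is transcribed inside the mitochondrion, whereas every one of their proteins is encoded in the nucleus, made by cytosolic ribosomes and imported. Some of these proteins have counterparts in bacterial ribosomes and others occur only in mitochondria. The small subunit reads the messenger RNA, and the large subunit joins amino acids and guides the new chain out through its exit tunnel into the inner membrane.

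The genes lay slightly but broadly lower in the blastema. Of the 71 genes 15 were lower at a limma adjusted p under 0.05 and 0 were higher, or 21.13% of them, against 4.66% of all genes called lower, 4.98% called higher and 9.64% called in either direction. The blastema mean was below the uninjured mean for 63 of 71, against 51.2% of all genes. All 3 blastema arrays lay below all 4 uninjured arrays for 32 genes and above them for 0, where 10.6% of all genes were separated downward and 10.4% upward. The median log2 fold change of the 71 was -0.21 (quartiles -0.37 and -0.12), and that of all genes was -0.0054. Changes were small, since the 15 called genes stood at 57.55% to 82.04% of their uninjured level and 0 of the 71 genes changed by 2-fold or more. At an unadjusted p under 0.05 the lower genes numbered 37, against 12.7% of all genes. In whole tissue, fewer cells of a type and less RNA per cell cannot be told apart.

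**Figure D1:**
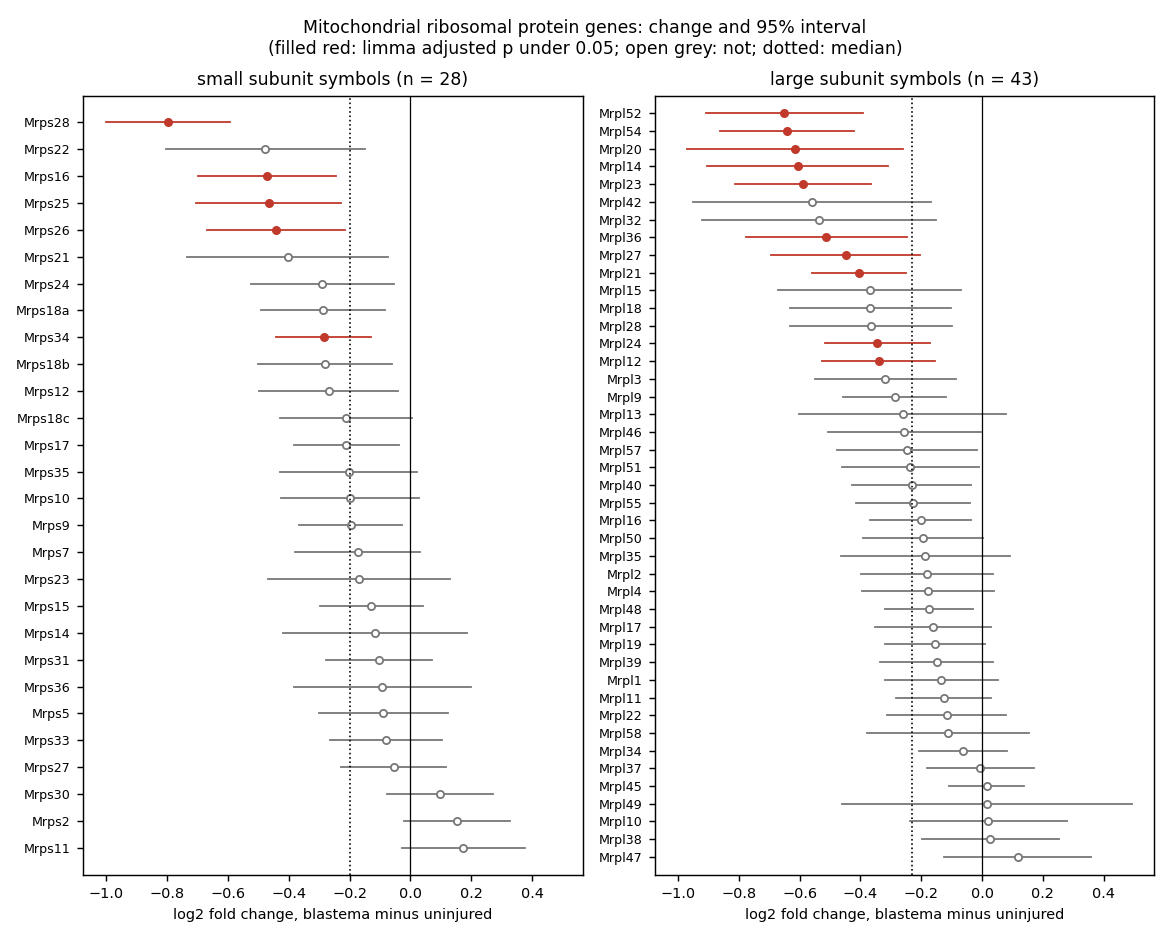
Change of each of the 71 genes, blastema minus uninjured digit, on the log2 scale (x axis), with small subunit symbols on the left panel and large subunit symbols on the right. Points are log2 fold changes and lines their 95% intervals, filled red where the limma adjusted p is under 0.05, and dotted lines mark the medians of -0.20 (small) and -0.23 (large). Most points lie left of 0, with Mrps28 farthest left at -0.80.

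Promoters are shown for called genes whose upstream stretch holds a motif of the factors classically tied to nuclear genes of mitochondria, NRF1 and the ETS factor GABP, and for Mrpl45, which did not pass the test. RefSeq windows of the GRCm38.p6 build, 250 bases before to 50 after the start, were matched for 62 of the 71 genes and 12 of the 15 called ones. The 62 genes had 68 windows, and a match in any window of a gene was counted. Each line gives the 150 bases before the start, 5′ to 3′ on the strand of the gene, with the motif match in capitals. Mrpl12 (chr11:120484487-120484636, plus strand) and Mrpl45 (chr11:97315566-97315715, plus strand) hold the NRF1 motif, with 1 and 2 matches. Mrpl27 (chr11:94653641-94653790, plus strand), Mrpl52 (chr14:54426759-54426908, plus strand) and Mrps26 (chr2:130563607-130563756, plus strand) hold the ETS motif, and so does Mrps16 (chr14:20393491-20393640, minus strand). Mrps16 has another window with a start further upstream (chr14:20393585-20393884), which holds no ETS match. Most of the stretch shown for Mrps16 lies past that other start. Matches that reach or lie past the start are not marked. Mrps26 has such NRF1 matches, with first bases at -2 and 4 from the start.
Mrpl12: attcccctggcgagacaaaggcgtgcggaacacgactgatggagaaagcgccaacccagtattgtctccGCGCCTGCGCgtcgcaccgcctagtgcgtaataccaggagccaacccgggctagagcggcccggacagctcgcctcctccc
Mrpl45: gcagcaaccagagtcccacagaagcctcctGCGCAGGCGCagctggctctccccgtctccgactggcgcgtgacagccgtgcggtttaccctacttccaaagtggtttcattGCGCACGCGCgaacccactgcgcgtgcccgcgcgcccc
Mrpl27: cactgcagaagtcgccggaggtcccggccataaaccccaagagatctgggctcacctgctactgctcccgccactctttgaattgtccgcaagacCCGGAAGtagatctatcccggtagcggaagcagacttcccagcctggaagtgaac
Mrpl52: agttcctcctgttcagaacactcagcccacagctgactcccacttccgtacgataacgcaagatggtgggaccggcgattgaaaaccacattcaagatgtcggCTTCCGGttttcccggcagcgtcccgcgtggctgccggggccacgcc
Mrps26: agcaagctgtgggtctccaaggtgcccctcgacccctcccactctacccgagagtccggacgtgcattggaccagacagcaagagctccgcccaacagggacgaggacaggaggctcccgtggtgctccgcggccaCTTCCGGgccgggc
Mrps16: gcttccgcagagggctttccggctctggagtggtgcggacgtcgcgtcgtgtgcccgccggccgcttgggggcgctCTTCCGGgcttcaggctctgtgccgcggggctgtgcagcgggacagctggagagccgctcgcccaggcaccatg

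The motifs were searched as letters on both strands, GCGCA, any base and GCGC for NRF1, CCGGAAG for ETS factors, AGATGGC for YY1, CCAAT for the CCAAT box and CACGTG for the E-box. An ETS match was present in 37.1% of the 62 windows' genes (23), in 13.3% of measured protein-coding genes and in 9.93% of all genes with a window. For NRF1 the shares were 17.7% (11 genes), 7.68% and 5.19%, and for YY1 19.4% (12 genes), 7.0% and 7.31%. The CCAAT box (38.7%, against 41.9% and 41.1%) and the E-box (8.06%, against 9.4% and 8.09%) had shares close to those of the other genes. Similar gene groups held these motifs too, since an ETS match was present in 44.2% of cytosolic ribosomal protein and 26.6% of oxidative phosphorylation genes with a window, and an NRF1 match in 11.5% and 23.4%. In no window of these genes did an NRF1 and an ETS match overlap. An NRF1 or an ETS match was held by 30 genes, and 4 held both. An ETS match was found in 5 of the 12 called genes with a window and in 18 of the 50 genes not called, and an NRF1 match in 3 and 8. A match is a string of letters, not a bound site. The genes of the factors themselves lay within 0.11 of their uninjured level on the log2 scale. Nrf1 differed by -0.11 (95% interval -0.25 to 0.035), Gabpa by -0.05 (-0.20 to 0.11) and Yy1 by -0.05 (-0.26 to 0.16), with limma adjusted p of 0.3273, 0.7142 and 0.7842.

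Small subunit genes called lower numbered 5 of 28 (17.86%, against 4.66% of all genes), with 0 higher. Mrps28, a counterpart of a bacterial small subunit protein, had the largest fall of the 71 genes. Its log2 levels were 6.03, 6.17 and 5.96 in blastemas, against 6.75, 6.91, 6.99 and 6.76 in uninjured digits. Every blastema array lay well below every uninjured array, and the log2 fold change was -0.80 ± 0.087 (SE, limma adjusted p = 0.00349). Mrps16, whose human gene is mutated in a respiratory chain deficiency of infants, was at 6.34, 6.23 and 6.00 in blastemas and at 6.54, 6.70, 6.64 and 6.75 in uninjured digits. The groups did not overlap, and the log2 fold change was -0.47 ± 0.097 (adjusted p = 0.02553). Mrps25 and Mrps26, proteins with no bacterial counterpart, differed by -0.47 ± 0.10 (adjusted p = 0.03142) and -0.44 ± 0.097 (adjusted p = 0.03186). Mrps34, also specific to mitochondria, had closely spaced values, 6.75, 6.71 and 6.74 in blastemas, against 7.08, 7.09, 7.01 and 6.90 in uninjured digits. With this narrow spread a log2 fold change of -0.29 ± 0.066 passed (adjusted p = 0.03867). Mrps22, mutated in human mitochondrial disease and named after its values were seen, had a larger difference than Mrps34 but a wider spread. It lay at 6.26, 6.77 and 6.59 in blastemas and at 6.84, 7.02, 6.99 and 7.24 in uninjured digits, and did not pass (-0.48 ± 0.14, adjusted p = 0.0816).

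The 2 genes with the highest log2 fold changes of the 71 were small subunit genes too, and neither passed. Mrps11, a counterpart of a bacterial small subunit protein, lay at 6.96, 6.97 and 6.86 in blastemas and at 6.94, 6.69, 6.63 and 6.76 in uninjured digits, a difference of 0.17 (95% interval -0.03 to 0.38, adjusted p = 0.2689). Mrps2 differed by 0.15 (-0.021 to 0.33, adjusted p = 0.257). Mrps12, a protein of the decoding site, differed by -0.27 (-0.50 to -0.04, adjusted p = 0.1417).

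Large subunit genes called lower numbered 10 of 43 (23.26%, against 4.66% of all genes), with 0 higher. The largest falls were those of Mrpl52 and Mrpl54, both specific to mitochondria. Mrpl52 lay at 8.38, 8.69 and 8.68 in blastemas, against 9.25, 9.32, 9.33 and 9.03 in uninjured digits (-0.65 ± 0.11, limma adjusted p = 0.01308). Mrpl54 lay at 7.40, 7.72 and 7.41 in blastemas and at 8.06, 8.15, 8.23 and 8.18 in uninjured digits (-0.64 ± 0.094, adjusted p = 0.008044). In both genes the lowest uninjured array was clear of the highest blastema array. Mrpl20, whose bacterial counterpart is needed early in the assembly of the large subunit, was more scattered among blastemas. Its levels of 5.62, 6.28 and 6.03 there stood against 6.47, 6.74, 6.53 and 6.63 in uninjured digits (-0.62 ± 0.15, adjusted p = 0.04668). Mrpl14, which binds the assembly factor Malsu1 in human cells, lay at 6.12, 6.45 and 6.13 in blastemas and at 7.04, 6.90, 6.60 and 6.83 in uninjured digits (-0.61 ± 0.13, adjusted p = 0.02752). Blastema array 2 was the highest of the blastema arrays for Mrpl20, Mrpl14, Mrpl52 and Mrpl54.

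Mrpl23 and Mrpl24, both called, encode proteins whose bacterial counterparts sit where the new chain emerges. Mrpl23 was at 6.02, 5.79 and 5.77 in blastemas, against 6.36, 6.51, 6.59 and 6.35 in uninjured digits (-0.59 ± 0.095, limma adjusted p = 0.01124). Mrpl24 differed by less, at 8.22, 8.35 and 8.12 in blastemas and 8.64, 8.59, 8.51 and 8.57 in uninjured digits (-0.34 ± 0.074, adjusted p = 0.0293). Mrpl47, also a protein of the tunnel exit, did not pass and differed by 0.12 (95% interval -0.12 to 0.36, adjusted p = 0.5354), and by -0.14 with the mean of its probe sets. Mrpl45, which ties the ribosome to the inner membrane and is named after its values were seen, differed by 0.015 (-0.11 to 0.14, adjusted p = 0.8914). In Mrpl45, 6 of the 7 arrays carried the same value within 1e-06, at 6.56. Such repeated values, in 3 or more of the 7 arrays, occurred in 13 of the 71 genes, 0 of them called, and in 29.5% of all genes, so that the spread of these genes rests on few distinct values.

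Mrpl27 encodes the counterpart of the bacterial protein that reaches the site of peptide bond formation. It had the lowest levels of the called genes, 4.89, 4.83 and 4.68 in blastemas, against 5.37, 5.39, 5.18 and 5.04 in uninjured digits (-0.45 ± 0.10, limma adjusted p = 0.03927). All of these values lie under 5.51, a proxy for background set at the 95th percentile over 1088 olfactory receptor genes, since the table has no detection calls. Of the 71 genes 65 had both group means above this proxy, 3 had 1 and 3 had none. Among the 65 there were 14 called genes, with a median of -0.21. Mrpl36 (-0.51 ± 0.11, adjusted p = 0.03281) and Mrpl21 (-0.40 ± 0.066, adjusted p = 0.01148), both with bacterial counterparts, completed the called set together with Mrpl12.

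**Figure D2:**
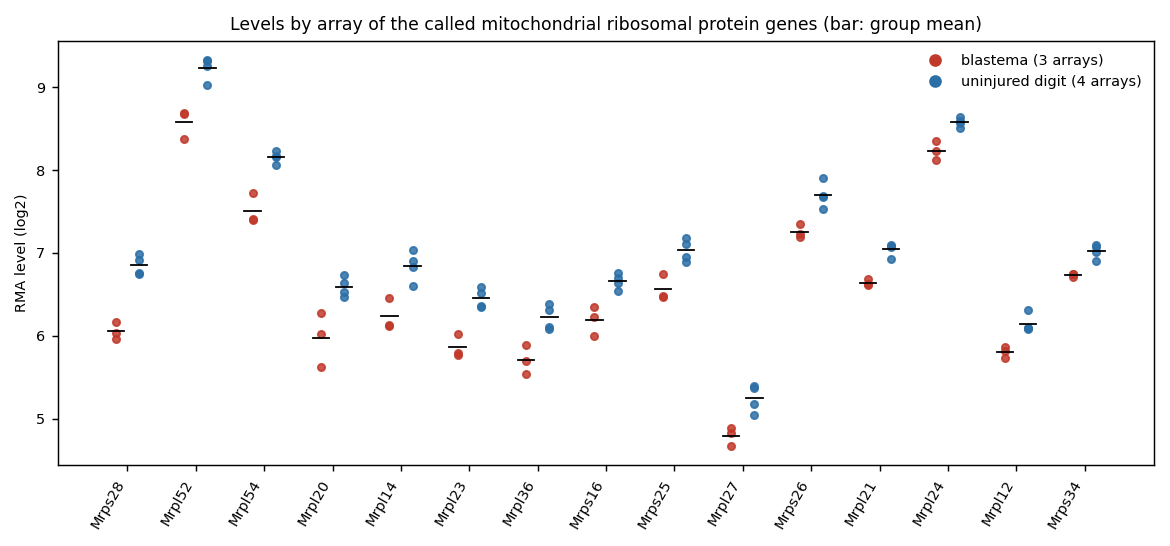
Log2 RMA levels (y axis) of the 15 called genes (x axis, from the largest fall on the left) on each array, with blastemas in red to the left of uninjured digits in blue and a bar at each group mean. In each of the 15 genes the highest blastema array lies under the lowest uninjured array, by the widest margin in Mrps28 (6.17 against 6.75).

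Of the genes for the stalk, the arm of the large subunit that recruits translation factors, Mrpl12 was called and Mrpl10 and Mrpl11 were not. The difference between these genes was not tested. Mrpl12, the stalk protein that also binds the mitochondrial RNA polymerase, was at 5.74, 5.81 and 5.86 in blastemas, against 6.08, 6.32, 6.09 and 6.09 in uninjured digits (-0.34 ± 0.079, limma adjusted p = 0.03867). Mrpl10 and Mrpl11 form the stalk base. Mrpl10 differed by 0.021 (95% interval -0.24 to 0.28, adjusted p = 0.932) and Mrpl11 by -0.13 (-0.28 to 0.03, adjusted p = 0.2966). The call of Mrpl12 depends on the probe set. Its other, dimmer probe set averaged 5.66 in blastemas and 5.51 in uninjured digits, and the mean of both gave -0.094 (adjusted p = 0.4352), close to the value of Mrpl11.

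Mammals have 3 paralogs of the bacterial protein S18, of which Mrps18b and Mrps18c belong to the small subunit and Mrps18a, despite its symbol, to the large. All had negative differences that did not pass. Mrps18a lay at 7.14, 7.08 and 7.12 in blastemas and at 7.60, 7.29, 7.43 and 7.30 in uninjured digits (-0.29, 95% interval -0.49 to -0.083, limma adjusted p = 0.09046). Mrps18b differed by -0.28 (-0.50 to -0.061, adjusted p = 0.116) and Mrps18c by -0.21 (-0.43 to 0.0065, adjusted p = 0.2135). The groups did not overlap in Mrps18a and Mrps18b and did in Mrps18c, where 10.6% of all genes were separated downward. The difference between the paralogs was not tested. A dimmer probe set of Mrps18b averaged 7.68 in blastemas and 8.29 in uninjured digits, a difference of -0.62, and with the mean of both the gene passed (-0.45, adjusted p = 0.03078). In Mrps18c the dimmer probe set differed by 0.072, and the mean of both gave -0.07 (adjusted p = 0.6739). Mrps30, which also sits in the large subunit, differed by 0.097 (-0.079 to 0.27, adjusted p = 0.4762). Mrps36, now known as a part of the 2-oxoglutarate dehydrogenase complex and not of the ribosome, differed by -0.092 (-0.38 to 0.20, adjusted p = 0.6969), at levels of 4.36 to 4.84 that all lie under the background proxy.

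Of the 9 genes with more than 1 probe set, the unused set pointed the same way as the used one in Mrpl10, Mrpl36, Mrps16, Mrps17 and Mrps18b and the opposite way in Mrpl12, Mrpl47, Mrps5 and Mrps18c. The unused sets of Mrpl10, Mrpl36 and Mrpl47 had both group means under the background proxy of 5.51, so their directions carry little weight. In Mrps16 the unused set, at 5.58 in blastemas and 5.82 in uninjured digits, differed by -0.25.

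The subunits did not separate clearly from each other. The median log2 fold change was -0.20 over small subunit and -0.23 over large subunit symbols. With Mrps30 and Mrps18a counted in the large subunit and Mrps36 left out, it was -0.20 over 25 and -0.23 over 45 genes, with 5 and 10 genes called. Averaged over genes and set against the uninjured mean, the small subunit stood at -0.26, -0.16 and -0.22 on blastema arrays 1, 2 and 3, against -0.011, 0.077, -0.0019 and -0.064 on uninjured arrays 1 to 4. The large subunit stood at -0.32, -0.19 and -0.28 on the blastema arrays, against -0.054, 0.074, 0.028 and -0.048 on the uninjured arrays. For both subunits every blastema array lay below every uninjured array, and blastema array 1 was lowest. The large minus small difference was -0.061, -0.024 and -0.059 on blastema arrays, against -0.043, -0.0026, 0.03 and 0.016 on uninjured arrays, so the ranges overlap. All blastema arrays were below all uninjured arrays for 22 of 43 large subunit genes and for 10 of 28 small subunit genes. These shares were 51.16% and 35.71%, against 10.6% of all genes. Because the genes were chosen with results known, no test was made of these averages.

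By origin, genes with a bacterial counterpart (42) had a median of -0.21, with 10 called (23.81%). Genes specific to mitochondria (27) had one of -0.20, with 5 called (18.52%). Over all genes 4.66% were called lower. Within the large subunit by place the medians were -0.29 over 27 genes with a bacterial counterpart (8 called) and -0.19 over 17 specific genes (2 called). Within the small subunit the order was the opposite, -0.20 over 15 (2 called) and -0.24 over 10 (3 called). Mrps18a and Mrps18b, though paralogs of the bacterial protein S18, were counted with the specific genes. Mrpl55 and Mrps36 were not classed by origin.

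Other genes of mitochondrial translation are given by list, and the difference between these lists and the ribosomal protein genes was not tested. Of the genes for mitoribosome proteins with other symbols 3 were measured and 0 passed. Gadd45gip1, a large subunit protein, differed by -0.17 (95% interval -0.30 to -0.035, limma adjusted p = 0.118). Among 13 measured translation factors 1 was lower (7.69%, against 4.66% of all genes) and 0 higher, with a median of -0.15. It was Tufm, the elongation factor that brings aminoacyl-tRNA to the ribosome, at 7.60, 7.84 and 7.62 in blastemas, against 7.96, 8.20, 8.25 and 8.15 in uninjured digits (-0.45 ± 0.096, adjusted p = 0.02922). Among 19 mitochondrial tRNA synthetase and amidotransferase genes 1 was higher (4.98% of all genes were) and 0 lower, with a median of -0.086. It was Gatc, a subunit of the amidotransferase that makes glutaminyl-tRNA, at 10.04, 10.13 and 10.43 in blastemas and 9.40, 9.55, 9.61 and 9.53 in uninjured digits (0.68 ± 0.11, adjusted p = 0.009809). Of 25 assembly factors 0 passed (median -0.084, 4 at an unadjusted p under 0.05), the nearest being Ngrn, a factor needed for the large ribosomal RNA (-0.37, adjusted p = 0.06346). Of 15 genes of mitochondrial DNA transcription and its regulators 0 passed (median -0.036, 0 at an unadjusted p under 0.05). The smallest p was that of the transcription factor Tfb2m (-0.22, adjusted p = 0.2097).

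The genes for proteins of the cytosolic ribosome and of oxidative phosphorylation, the groups most like the mitochondrial ribosome in function, were lower as well. Of 67 cytosolic ribosomal protein genes 37 were called lower (55.22%, against 4.66% of all genes) and 0 higher, with a median of -0.41. The largest changes were those of Rpl9 (-1.20 ± 0.12), Rps28 (-1.07 ± 0.085), Rps19 (-0.99 ± 0.062) and Rpl7 (-0.91 ± 0.096), with limma adjusted p of at most 0.00318. Of 79 oxidative phosphorylation subunit genes 34 were called lower (43.04%) and 2 higher (4.98% of all genes were), with a median of -0.33. The largest falls were in subunits of cytochrome c oxidase, Cox7b (-1.09 ± 0.11), Cox7a2 (-1.02 ± 0.089), Cox6b1 (-0.84 ± 0.06) and Cox5b (-0.79 ± 0.11), with adjusted p of at most 0.006496. The 2 higher genes, named after their values were seen, were Ndufa4l2 (0.44 ± 0.098, adjusted p = 0.03377) and Sdhc, a subunit of succinate dehydrogenase (0.31 ± 0.075, adjusted p = 0.04538). The 13 proteins encoded by mitochondrial DNA were not analysed here. Both lists were taken by symbol, so they also hold paralogs of subunit genes. In 6 cytosolic ribosomal and 7 oxidative phosphorylation genes both group means lay at or under the background proxy, against 3 of the 71. Both medians are farther from 0 than that of the mitochondrial ribosomal proteins, -0.21. The difference between the groups was not tested, and these lists too were drawn up with results known.

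**Figure D3:**
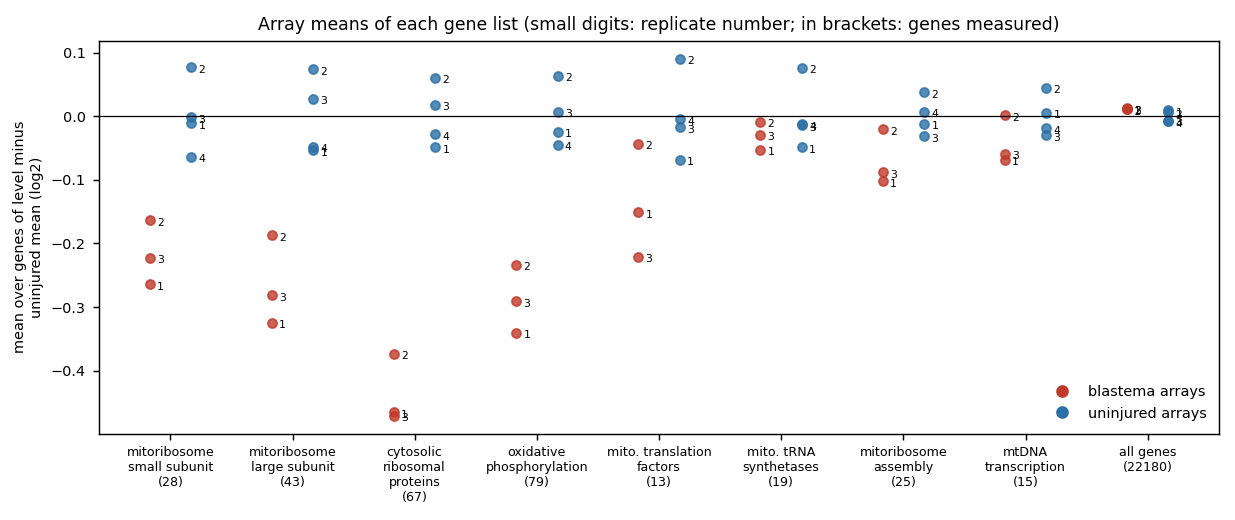
Mean over the genes of each list (x axis, number measured in brackets) of the log2 level minus the uninjured mean (y axis), one point per array, blastemas in red to the left of uninjured digits in blue, with the replicate number beside it. Blastema arrays of the small subunit lie at -0.26 to -0.16 and those of the large subunit at -0.32 to -0.19, below all uninjured arrays, while the means over all genes lie between -0.0078 and 0.0124.

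Markers of several cell types differed between the groups, where 4.98% of all genes were called higher and 4.66% lower. Osteoblast markers were called higher for 5 of 5 genes, with array means of 9.53 to 10.02 in blastemas, against 6.05 to 6.99 in uninjured digits. Osteoclast markers were higher for 3 of 4 (7.30 to 7.88 in blastemas, 6.05 to 6.18 in uninjured digits), macrophage markers for 3 of 4 (7.37 to 7.87 and 6.66 to 6.94) and fibroblast markers for 2 of 4 (10.43 to 11.06 and 8.79 to 9.78). Keratinocyte markers were high in both groups (11.90 to 12.03 in blastemas, 11.95 to 12.26 in uninjured digits), with 1 of 5 called lower, and Dsg1a was the gene called. Of 2 sweat gland markers 1, Aqp5, was lower (list means 6.21 to 6.29 in blastemas, against 6.63 to 6.90 in uninjured digits). Markers of skeletal muscle, a tissue rich in mitochondria, and of fat were near the background proxy, with means of 4.99 to 5.07 in blastemas and 4.96 to 5.16 in uninjured digits for muscle, 5.32 to 5.52 and 5.10 to 5.34 for fat, and 0 of 7 and 0 of 5 called. The part of cell makeup in the lower ribosomal protein genes was not tested.

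The calls rest on few arrays. Without blastema array 1, 8.45% of the 71 genes were called lower, against 4.549% of all genes, and without blastema array 3 5.63%, against 1.646%. Over the other omissions the share was 7.04% to 12.7% of the 71, against 1.934% to 4.491% of all genes. Mrps28, Mrpl52 and Mrpl54 passed with each of the 7 arrays left out in turn (limma adjusted p at most 0.02228, 0.04611 and 0.04312). Beyond these omissions, Mrpl54 lost its call with the replicate number as a block in the model (limma adjusted p = 0.05718). Mrpl52 lost its call without both arrays numbered 1 (0.05529). Mrps28 passed in both settings (0.04318 and 0.01997). Mrpl21 lost its call without blastema array 2 and Mrpl23 without blastema array 2 or 3 (highest adjusted p 0.05294 and 0.05615). Mrps16 passed only without blastema array 1 or uninjured array 1 as the array omitted. Mrpl14 passed only without blastema array 2 or uninjured array 3, and Mrps25 only without blastema array 2 or uninjured array 1. Mrpl20 and Mrpl24 passed only without blastema array 2, Mrpl36 only without uninjured array 1, and Mrpl27, Mrps26 and Mrps34 only without uninjured array 4. Mrpl12 passed in none of the 7 (0.05317 to 0.1112). Tufm passed only without blastema array 2 or uninjured array 1 (highest adjusted p 0.1147), and Gatc passed in all 7. The signs of the 15 called genes were the same in all 7 omissions.

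**Figure D4:**
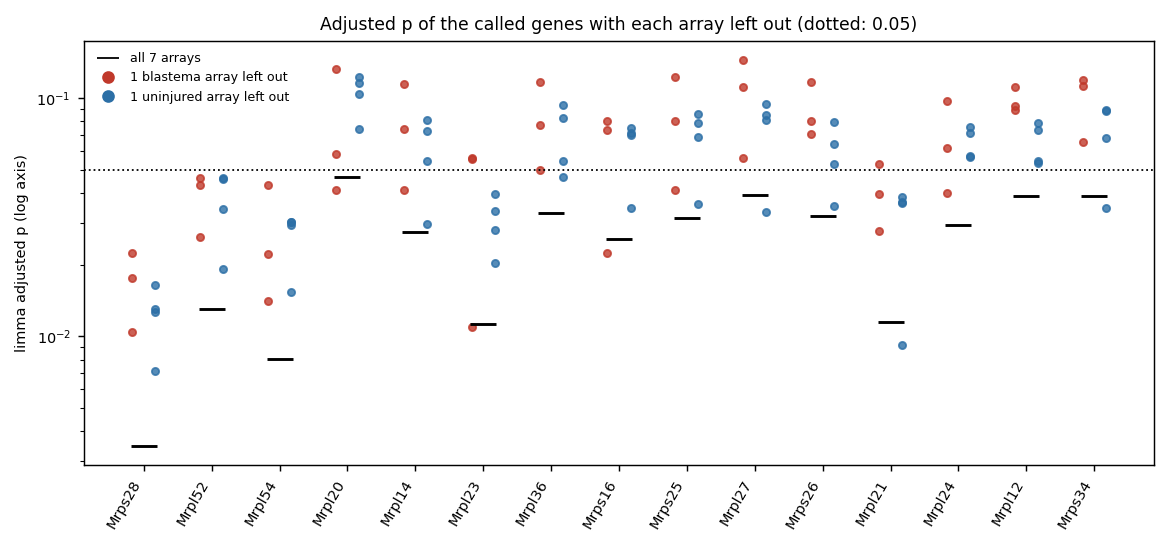
Limma adjusted p (y axis, log scale) of the 15 called genes with all 7 arrays (black bar) and with 1 blastema array (red) or 1 uninjured array (blue) left out, with a dotted line at 0.05. Only Mrps28, Mrpl52 and Mrpl54 have all points under the line.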

How the data were processed

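The deposited log2 values were produced by the authors with oligo and RMA (tools named in the submitters' processing notes), a method of background correction, between-array normalization and probe summary. Their versions are not stated in the labels. RNA (400 ng) was made into biotin-labelled cDNA, per the labels' protocols. Array medians ran from 5.53 to 5.58, so a difference in total RNA would not show. Arrays have no read depth, and their number, 7, limits the precision.

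Of 41345 probe sets 23521 list 1 gene symbol, and the brightest of each gene over the 7 arrays was kept (22180 genes). Blastema was tested against uninjured digit by limma's moderated linear model (limma 3.58.1 in R 4.3.3, default eBayes), with no covariate. Adjusted p-values are Benjamini-Hochberg over all 22180 genes, two-sided, and called means under 0.05. Log2 fold changes are blastema minus uninjured, with SE or 95% intervals from the fit. Gene lists are described by counts and medians. This fit was also run on simulated data with known changes. The members, lists, motifs and tests were chosen with earlier results of these data known. The genes named are the 10 largest called falls, the 3 highest and 3 lowest changes, fixed names (the S18 paralogs, the stalk, Mrps12, Mrps30 and Mrps36) and, of each other list, up to 4 called genes with the largest changes or else the gene with the smallest p. Mrps26, Mrpl21, Mrpl24, Mrps34, Mrps22, Mrpl45 and the factor genes Nrf1, Gabpa and Yy1 were added with their values in view. Promoter sequences are from RefSeq (GRCm38.p6). Figures were drawn with matplotlib 3.10.9.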

Additional observations from a re-analysis of the deposited data

Results flagged for a closer look

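Among 33 values tested over the 4 uninjured arrays, 3 had 1 array far from the others, where chance alone flags about 1 group in 20. Mrpl21 was at 6.927 on uninjured array 1, against 7.08 to 7.09 on the other uninjured arrays. Mrpl12 was at 6.316 on uninjured array 2, against 6.08 to 6.09 on the others. Gadd45gip1 was at 5.913 on uninjured array 4, where the other 3 arrays share the value 5.849.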

How the results depend on the processing

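All 15 calls were kept with array median scaling, array weights, the level filter at the 30th percentile (which drops Mrps36), reference gene scaling, and trend and robust variances, and 14 with the mean of all probe sets. The 5 reference genes averaged 9.17 on uninjured array 1, 9.39 to 9.43 on uninjured arrays 2 to 4 and 9.47 to 9.55 on blastemas. The log2 fold changes of all 5 were above 0, with 0 called. Scaling to these genes moved the median of all genes by -0.17. It gave 28 called members, 22.36% of all calls higher in place of 51.66% (647 higher and 2246 lower genes, in place of 1105 and 1034), and medians of -0.37 (small) and -0.40 (large). Scaling to reference genes or to array medians moves the change of every gene by 1 shared downward amount. The members' median minus that of all genes was therefore bound to stay at -0.21. For the same reason, keeping lower calls under these scalings is a weak check on them. Leaving out 1 array gave 4 to 9 called members, all lower (4 without blastema array 3), and 845 to 2295 called genes. The highest count of genes came without blastema array 1, where members fell to 6. Leaving out both arrays numbered 1 gave 6 members, 5 of the 15 and 1 other. With the replicate number as a block, 5 members and 599 genes passed. Uninjured array 4 has no blastema array of its number, so it does not inform the changes in that fit. Same-numbered arrays did not deviate together in every pair (r = 0.29, 0.15 and -0.065). The same-numbered uninjured array was the best match for blastema arrays 1 and 2. Blastema array 3 correlated best with uninjured array 4 (r = 0.14). The numbers are therefore not shown to pair the samples. Requiring a group mean above the background proxy left 14 called members. Members below 0 numbered 70 with reference gene scaling and 67 with array median scaling, in place of 63. Among the members named in the text signs turned in some that did not pass, and not all of these are listed here. Mrpl47 was -0.14 with the mean of all probe sets and -0.052 with reference gene scaling, which also gave -0.016 for Mrps2, -0.073 for Mrps30 and -0.15 for Mrpl10. Mrpl10 was -0.014 with array median scaling, -0.041 with the block and -0.041 to 0.13 over the omissions of 1 array, and Mrps36 was -0.16 to 0.0018 over them. The causes were not tested.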
